A study of Mus musculus with 4 samples.

Results

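The genes described here are 6 of the 16566 genes measured, found by symbol in all 4 deposited libraries: Sgk1, Nr3c1, Tsc22d3, Fkbp5, Ddit4 and Zbtb16. They are the gene for the glucocorticoid receptor (Nr3c1) and genes that glucocorticoids are known to induce. They were selected on their levels in these libraries: Sgk1 because it was low with ruxolitinib and high in 1 vehicle library, and the others as glucocorticoid-related genes with their values known. The values of the 6 genes in these libraries are therefore given as a description, with no test. The question asked of them was whether they move together across libraries.

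The study sequenced RNA of neutrophils from the bone marrow of C57BL/6 mice, with a stated purity above 95%. Cells of 2 libraries received ruxolitinib, an inhibitor of the kinases JAK1 and JAK2, for 1 h. Cells of the other 2 libraries received the vehicle, 80% glucose with 20% PEG300, for 1 h. Cells of both groups stood in 1640 medium with 20% fetal bovine serum for 1 h. The ruxolitinib concentration is 0.1 µM in the treatment field and 1 µM in the treatment protocol, so the dose is uncertain. The age and sex of the mice, and whether the 2 libraries of a group came from separate animals or cultures, are not given in the sources used here. Spread between the libraries of a group may thus be technical.

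Glucocorticoids enter the cell and bind their receptor, a nuclear receptor held in the cytoplasm by HSP90 and its co-chaperones. The bound receptor moves to the nucleus, where it binds glucocorticoid response elements (GREs) as a dimer and raises transcription of nearby genes, and it also restrains NF-kB and AP-1. In neutrophils glucocorticoids are known to prolong survival and to damp the release of inflammatory mediators. Of the genes described, Nr3c1 encodes the receptor, and Fkbp5 encodes FKBP51, an HSP90 co-chaperone that lowers the receptor's affinity for hormone. Tsc22d3 encodes GILZ, a leucine zipper protein that binds NF-kB and AP-1 subunits. Sgk1 encodes the serum- and glucocorticoid-regulated kinase, an AGC kinase activated through mTORC2 and PDK1. Ddit4 encodes REDD1, an inhibitor of mTORC1 that is also induced by stress, and Zbtb16 encodes PLZF, a BTB zinc finger repressor.

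Sgk1 has several transcription starts, and promoter windows in the RefSeq table of build GRCm38.p6 (250 bases before a start to 50 after) were found for Sgk1 (6 windows), Tsc22d3 (3), Fkbp5 (1) and Ddit4 (1). Of these windows 4 are printed: the 2 Sgk1 windows nearest to each other, 1 with a GRE and 1 at the start of Sgk1-201, and the single windows of Fkbp5 and Ddit4. These genes were taken because Sgk1, Fkbp5 and Ddit4 were at least 2-fold higher in vehicle replicate 2 than in vehicle replicate 1. The windows were searched on both strands for the GRE palindrome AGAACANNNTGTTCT, its core GNACANNNTGTNC, its half-site AGAACA, the AP-1 site TGANTCA, the cyclic AMP response element TGACGTCA, the STAT-binding GAS site TTCNNNGAA, the E-box CACGTG and the CArG box. Capitals mark every match, and matches may overlap. Each is given 5′ to 3′ on the sense strand of its gene.
Sgk1, start of Sgk1-202, chr10:21993640-21993939, plus strand: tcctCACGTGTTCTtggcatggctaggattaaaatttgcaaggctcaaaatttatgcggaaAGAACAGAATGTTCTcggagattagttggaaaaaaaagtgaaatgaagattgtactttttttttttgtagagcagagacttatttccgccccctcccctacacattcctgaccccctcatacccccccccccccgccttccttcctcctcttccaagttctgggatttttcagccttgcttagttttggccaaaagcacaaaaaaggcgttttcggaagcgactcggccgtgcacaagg
Sgk1, start of Sgk1-201, chr10:21994416-21994715, plus strand: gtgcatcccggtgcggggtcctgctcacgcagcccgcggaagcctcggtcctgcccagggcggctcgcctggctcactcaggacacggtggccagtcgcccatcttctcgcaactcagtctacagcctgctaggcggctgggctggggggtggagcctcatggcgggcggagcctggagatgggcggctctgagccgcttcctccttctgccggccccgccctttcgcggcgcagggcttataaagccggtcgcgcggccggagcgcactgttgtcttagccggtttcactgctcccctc
Fkbp5, chr17:28486100-28486399, minus strand: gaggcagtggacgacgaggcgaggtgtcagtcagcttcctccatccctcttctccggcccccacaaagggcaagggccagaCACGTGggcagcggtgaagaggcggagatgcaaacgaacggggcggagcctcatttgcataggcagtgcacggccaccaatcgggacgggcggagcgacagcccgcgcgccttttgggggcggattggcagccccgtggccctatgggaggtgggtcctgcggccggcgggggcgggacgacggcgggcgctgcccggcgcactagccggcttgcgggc
Ddit4, chr10:59951721-59952020, minus strand: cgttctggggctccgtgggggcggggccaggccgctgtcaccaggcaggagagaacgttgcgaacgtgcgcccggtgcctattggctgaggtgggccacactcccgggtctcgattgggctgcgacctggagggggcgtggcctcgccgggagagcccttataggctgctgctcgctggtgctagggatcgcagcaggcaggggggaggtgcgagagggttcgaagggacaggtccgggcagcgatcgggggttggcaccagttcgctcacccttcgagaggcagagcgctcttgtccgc

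The Sgk1 window at the start of transcript Sgk1-202 held the complete palindrome, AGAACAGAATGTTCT, at chr10:21993701-21993715. Its first base lies 189 bases before that start and 965 bases before the start of transcript Sgk1-201. The palindrome was present in 3 of 32851 windows of this length (0.00913%), and the looser core in 156 (0.475%). The other windows with the palindrome belonged to Acnat2 and Gm35041, which are not in the files. A further half-site in the same Sgk1 window overlapped the E-box. None of the searched letters was in the window of Sgk1-201 or in that of Ddit4, and the Fkbp5 window held an E-box alone, a motif found in 7.15% of windows. Among the other Sgk1 windows, 1 held a half-site and a GAS site and 1 a half-site. For Tsc22d3, 1 window held a half-site (19% of all windows) and 1 a GAS site (8.3%). A match describes letters and is not evidence of binding, and the files do not tell the transcription starts apart. Bases outside these windows were not searched, so a window without a match does not show that its gene lacks a GRE.

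Each library held between 14235511 and 15419579 estimated counts. The libraries did not group by treatment: the spread beyond counting noise, as a coefficient of variation, was 3.63% from ruxolitinib replicate 1 to vehicle replicate 1. By the same measure it was 17.7% between the 2 ruxolitinib libraries and 31.9% between the 2 vehicle libraries. Vehicle replicate 2 stood apart from vehicle replicate 1 by at least 2-fold upward for 6.1% of the 11611 genes tested and downward for 7.4%. The 13 neutrophil markers were all measured. Their summed level was 89310 and 108974 CPM (counts relative to the scaled library size) with ruxolitinib, against 88149 and 97205 CPM with vehicle. These sums do not measure the stated purity. Because these are bulk samples, fewer cells of a type and less RNA per cell cannot be told apart.

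All 6 genes were highest in vehicle replicate 2. In CPM the other 3 libraries lay within 1.08-fold of each other for 3 of them (Nr3c1, Fkbp5 and Ddit4) and within 1.53-fold for the other 3. Among all genes tested, 38.5% were highest in vehicle replicate 2. Ruxolitinib replicate 1 was within 1.13-fold of vehicle replicate 1 for each of the 6 genes, and none reached the 2-fold that 0.844% of all genes tested reached in either direction between those libraries. Ruxolitinib replicate 2 was the lowest library for Sgk1, Nr3c1, Ddit4 and Zbtb16 (4 of 6, and 29.4% of all genes tested). Summed over the 6 genes, the level was 421 and 432 CPM with ruxolitinib, against 424 and 838 CPM with vehicle. The genes thus shared their highest library, but they did not share the order of the other 3 libraries or the size of the difference.

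**Figure D1:**
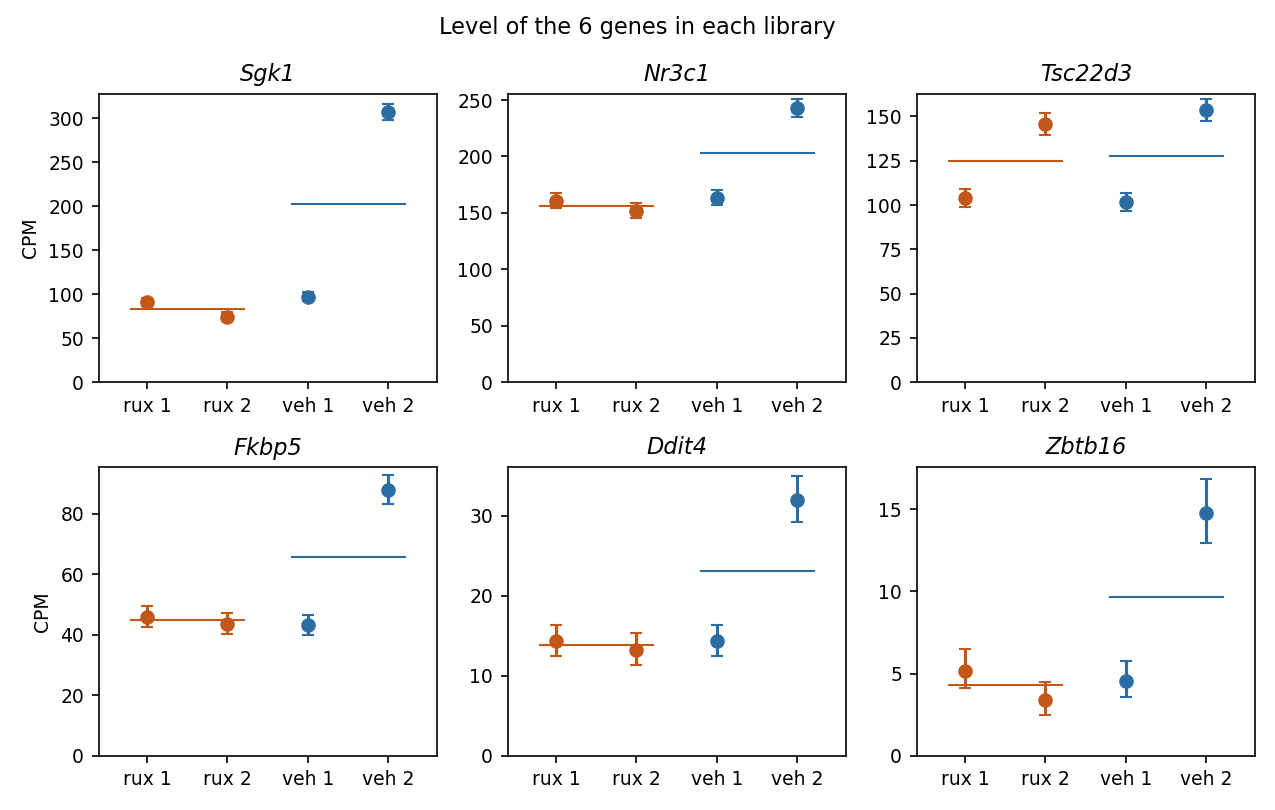
Level of each of the 6 genes in CPM (linear axis from 0) in ruxolitinib replicates 1 and 2 (rux, orange) and vehicle replicates 1 and 2 (veh, blue). Bars are exact 95% Poisson intervals of the count and cover counting error only, and horizontal lines are the means of 2 libraries; each gene is highest in vehicle replicate 2, at 307 CPM for Sgk1.

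The receptor gene Nr3c1 (chromosome 18, 39410545 to 39519421, GRCm38.p6) was at 161 and 152 CPM with ruxolitinib, against 164 and 243 CPM with vehicle. Both ruxolitinib libraries lay below both vehicle libraries, but the counting intervals of ruxolitinib replicate 1 and vehicle replicate 1 overlapped, at 2423 (95% exact Poisson interval 2327 to 2521) against 2575 (2476 to 2676) estimated counts before scaling. Of all genes tested, 12.8% had ruxolitinib libraries wholly below vehicle libraries. Group means were 156 ± 6.46 CPM with ruxolitinib and 203 ± 55.9 CPM with vehicle (SD, n = 2 each), and the fitted log2 fold change was -0.38 ± 0.29 (SE).

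Fkbp5 (chromosome 17, 28398753 to 28486149), whose product feeds back on the receptor, was at 45.8 and 43.7 CPM with ruxolitinib, against 43.2 and 88.0 CPM with vehicle. Vehicle replicate 2 was at 2.03 times vehicle replicate 1, the other 3 libraries lay within 1.06-fold of each other, and the groups overlapped. The counts were 689 and 594 with ruxolitinib, against 681 and 1349 with vehicle. The fitted log2 fold change was -0.55 ± 0.35 (SE, n = 2 per group).

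Tsc22d3 (chromosome X, 140539528 to 140600522) was at 104 and 146 CPM with ruxolitinib, against 102 and 153 CPM with vehicle. Here the replicates numbered 2 were the high ones in both groups, so the groups overlapped and the means, 125 ± 29.6 CPM with ruxolitinib and 128 ± 36.6 CPM with vehicle (SD, n = 2 each), nearly coincided. Its fitted log2 fold change was -0.03 ± 0.31 (SE). Tsc22d3 was the exception among the 6 genes in ruxolitinib replicate 2, where it was 1.40 times its level in ruxolitinib replicate 1, whereas the other 5 were at 0.653 to 0.954 times. None of the 6 differed by 2-fold between the ruxolitinib libraries, where 3.38% of all genes tested did.

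Sgk1 (chromosome 10, 21882184 to 21999903) was at 91.3 and 74.6 CPM with ruxolitinib, against 97.1 and 307 CPM with vehicle. Its counts were 1375 and 1014 with ruxolitinib, against 1529 and 4710 with vehicle. Counting error was small beside the difference of vehicle replicate 2 from the other libraries. Scaled to CPM, however, the counting intervals of ruxolitinib replicate 1 and vehicle replicate 1 overlapped. The groups did not overlap, yet the gap between ruxolitinib replicate 1 and vehicle replicate 1 was 0.941-fold while vehicle replicate 2 was 3.16 times vehicle replicate 1. Only 1.11% of the genes tested differed upward by as much between the vehicle libraries. The group means were 83.0 ± 11.9 CPM with ruxolitinib and 202 ± 149 CPM with vehicle (SD, n = 2 each), and the fitted log2 fold change was -1.28 ± 0.45 (SE). Without vehicle replicate 2 it was -0.24.

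Ddit4 (chromosome 10, 59949675 to 59951770) was at 14.3 and 13.2 CPM with ruxolitinib, against 14.3 and 32.0 CPM with vehicle. Vehicle replicate 2 was 2.24 times vehicle replicate 1, and the other 3 libraries lay within 1.08-fold of each other, so the groups overlapped. Its counts, 216 and 180 with ruxolitinib against 225 and 490 with vehicle, gave 95% intervals of 188 to 247 and 155 to 208 against 197 to 256 and 448 to 535. Only the interval of vehicle replicate 2 stood clear of the others. The fitted log2 fold change was -0.74 ± 0.38 (SE, n = 2 per group).

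Zbtb16 (chromosome 9, 48651797 to 48836225) was the least abundant of the 6 genes, at 5.18 and 3.38 CPM with ruxolitinib, against 4.57 and 14.8 CPM with vehicle. Vehicle replicate 2 was 3.24 times vehicle replicate 1, close in size to the difference of Sgk1, while the groups overlapped. The counts behind these values were 78 and 46 with ruxolitinib, against 72 and 227 with vehicle. Their 95% intervals before scaling were 61.7 to 97.3 and 33.7 to 61.4, against 56.3 to 90.7 and 198 to 259. Scaled to CPM, the intervals of the 3 lower libraries all overlapped. The fitted log2 fold change was -1.17 ± 0.51 (SE, n = 2 per group).

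All 6 fitted log2 fold changes were below 0, at a median of -0.65, beside a median of -0.00 over all genes tested. The size of each depended on single libraries. With vehicle replicate 2 left out the fitted values were -0.24 for Sgk1, -0.07 for Nr3c1, 0.29 for Tsc22d3, 0.04 for Fkbp5, -0.06 for Ddit4 and -0.10 for Zbtb16. With vehicle replicate 1 left out they ranged from -1.88 for Sgk1 to -0.29 for Tsc22d3. The sign of Fkbp5 turned only without vehicle replicate 2, and that of Tsc22d3 also turned without ruxolitinib replicate 1, to 0.20. The fits without a vehicle library take the spread from the ruxolitinib pair and apply it to the remaining vehicle library.

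**Figure D2:**
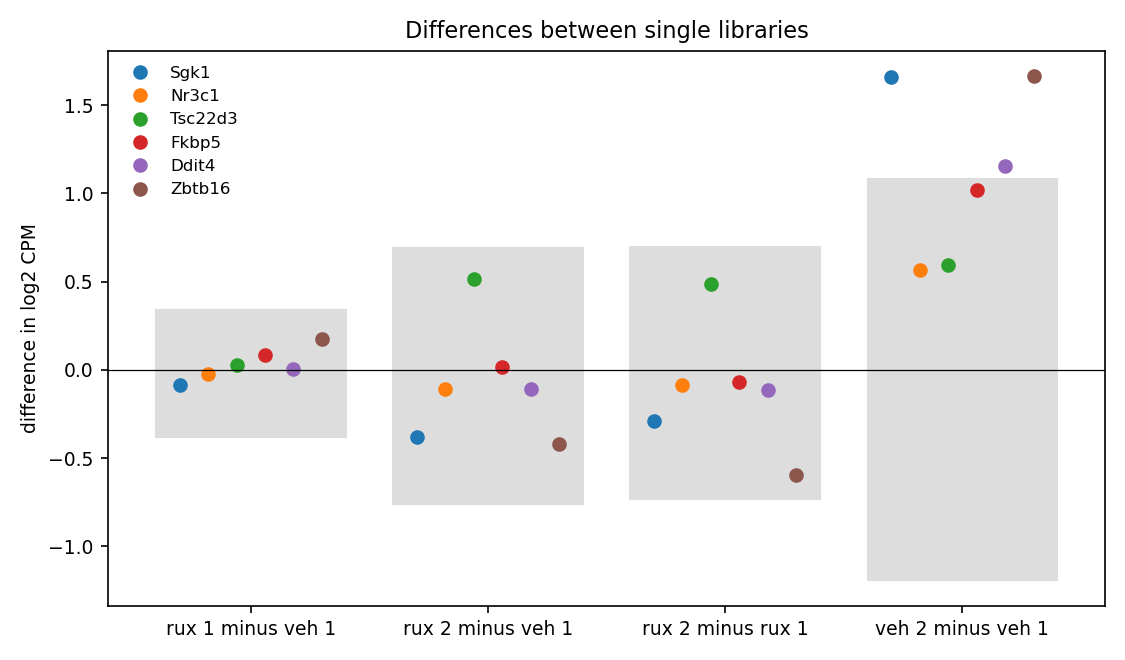
Differences in log2 CPM between pairs of single libraries (rux, ruxolitinib; veh, vehicle; prior count 2) for the 6 genes, with grey boxes spanning the 5th to 95th percentile of the 11611 genes tested. Points lie near 0 for ruxolitinib replicate 1 minus vehicle replicate 1 and between 0.57 and 1.67 for vehicle replicate 2 minus vehicle replicate 1.

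Between the vehicle libraries the 6 genes fell into a graded series. Zbtb16 and Sgk1 were higher in vehicle replicate 2 by a log2 of 1.67 and 1.66, Ddit4 by 1.15, Fkbp5 by 1.02, Tsc22d3 by 0.59 and Nr3c1 by 0.57. Thus 4 of the 6 were at least 2-fold higher, where 6.1% of all genes tested were. Nr3c1 and Tsc22d3 were not far out: 17.6% and 16.7% of the genes tested were at least as much higher in vehicle replicate 2. The plot of all genes places Zbtb16, Sgk1, Ddit4 and Fkbp5 in the upper tail and the other two on the shoulder.

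**Figure D3:**
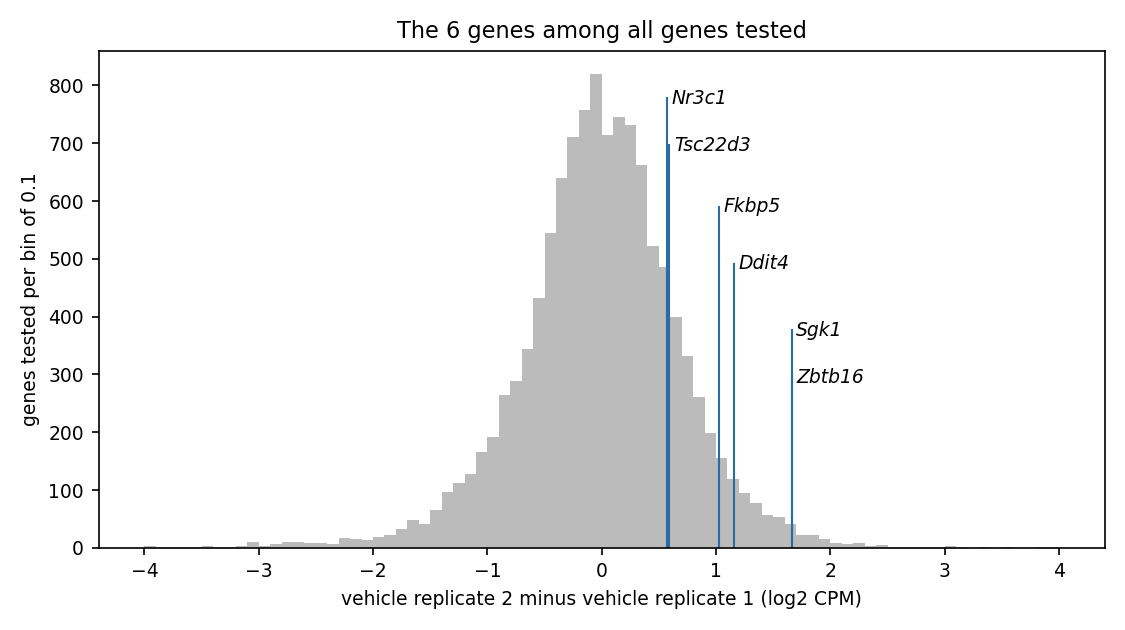
Number of the 11611 genes tested per bin of 0.1 in the difference between vehicle replicate 2 and vehicle replicate 1 (log2 CPM; differences beyond 4 are drawn in the end bins), with lines at the 6 genes. Line height has no meaning; Nr3c1 and Tsc22d3 lie at 0.57 and 0.59 and Zbtb16 and Sgk1 at 1.67 and 1.66.

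Levels of different genes were compared in TPM (transcript abundance that the authors scaled to gene length and library). Tsc22d3 was at 96.5 and 109 TPM with ruxolitinib, against 95.2 and 144 TPM with vehicle, and Sgk1 at 68.2 and 44.6 TPM against 72.7 and 229 TPM. Nr3c1 followed at 44.9 and 33.7 TPM with ruxolitinib, against 45.4 and 68.5 TPM with vehicle. Fkbp5 was at 21.2 and 16.2 TPM against 20.1 and 40.7 TPM, and Ddit4 at 16.0 and 11.9 TPM against 16.0 and 35.7 TPM. Zbtb16 was last at 1.18 and 0.78 TPM with ruxolitinib, against 1.13 and 3.89 TPM with vehicle. In 3 libraries the order was Tsc22d3, Sgk1, Nr3c1, Fkbp5, Ddit4 and Zbtb16, and in vehicle replicate 2 Sgk1 stood above Tsc22d3. Over the 4 libraries the TPM ranges of Tsc22d3 and Sgk1, Sgk1 and Nr3c1, Nr3c1 and Fkbp5, and Fkbp5 and Ddit4 overlapped. Those of Nr3c1 and Ddit4 also overlapped, and the range of Zbtb16 lay below all others. Mean TPM put Tsc22d3 above 90.5% of the genes tested and Zbtb16 above 14.4%. On the TPM scale ruxolitinib replicate 2 became the lowest library for Fkbp5, which on the CPM scale was lowest in vehicle replicate 1. The spread of the 3 libraries other than vehicle replicate 2 also depended on the scale. In TPM it was 1.35-fold for Nr3c1, 1.31-fold for Fkbp5 and 1.35-fold for Ddit4. It was 1.15-fold for Tsc22d3, 1.51-fold for Zbtb16 and 1.63-fold for Sgk1. The median TPM of all genes tested was also lower in ruxolitinib replicate 2, at 10.7, against 13.3 to 13.7 in the other libraries. The matching CPM medians were 19.4 to 20.4, so the lower TPM of that library was not particular to these genes.

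The expression patterns most like that of Sgk1 were sought among 11186 other named genes, by the distance between centred log2 CPM profiles over the 4 libraries. The 5 nearest genes were Daam2 (distance 0.10), Tiparp (0.14), Cd226 (0.17), Prr12 (0.18) and Krt7 (0.20). Tiparp, which encodes an ADP-ribosyltransferase, was at 64.4 and 57.6 CPM with ruxolitinib, against 65.3 and 217 CPM with vehicle, and Daam2 at 3.39 and 2.87 CPM against 3.43 and 11.3 CPM. Cd226 and Krt7 were below 3 CPM in every library, where counting error is large. Zbtb16 ranked 12th by likeness to Sgk1 at a distance of 0.24, Ddit4 188th at 0.58, Fkbp5 456th at 0.77, Nr3c1 1392nd at 1.06 and Tsc22d3 3645th at 1.40. Fkbp5 and Ddit4 lay 0.19 apart, and Tsc22d3 was the most distant from Zbtb16, at 1.43. This distance counts the size of a difference as well as its direction, and by it the 6 genes did not form 1 profile. Sgk1 lay near Zbtb16 and Fkbp5 near Ddit4. Nr3c1 lay far from Sgk1 but 0.34 from Fkbp5 and 0.50 from Ddit4. Tsc22d3 lay 0.52 from Nr3c1, its nearest among the 6 genes. The nearest genes to Zbtb16 were Fzd5 and Bin2, to Ddit4 Rgs14 and Fbh1, to Fkbp5 Dnah6 and Klhl8, to Nr3c1 St7l and Entpd3, and to Tsc22d3 Ktn1 and Psmg4.

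Of all 11611 genes, 0 (0%) were called higher in ruxolitinib libraries and 0 (0%) lower by edgeR's quasi-likelihood test (Benjamini-Hochberg adjusted p under 0.05). Without adjustment 225 genes had a p under 0.05. DESeq2 and limma-voom likewise called 0 genes, and 232 and 188 had an unadjusted p under 0.05. Every list of the pathway therefore held 0 calls in either direction, which does not show that its genes were unchanged. The lists below are described by their medians and by the difference between the vehicle libraries.

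Other genes that glucocorticoids induce were mixed. Of 32 such genes besides the 6, 30 were tested, with a median log2 fold change of -0.01, 16 below 0 and 14 above 0. In vehicle replicate 2, 17 of the 30 (56.7%) were at their highest (38.5% of all genes tested), 7 (23.3%) were at least 2-fold above vehicle replicate 1 (6.1% of all) and 2 at least 2-fold below. The 7 were Klf9, Klf13, Dusp1, Irs2, Cd163, Mertk and Zfp36. Dusp1, which encodes a phosphatase of MAP kinases, was at 195 and 191 CPM with ruxolitinib, against 208 and 810 CPM with vehicle, a log2 fold change of -1.40 ± 0.49 (SE). Zfp36, which encodes the mRNA decay factor tristetraprolin, was at 709 and 744 CPM against 786 and 2455 CPM. Dusp1 and Zfp36 are also immediate early genes that many stimuli induce.

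The transcription factor gene Klf9 was at 8.04 and 6.99 CPM with ruxolitinib, against 7.30 and 15.4 CPM with vehicle, much as Fkbp5. Per1, a circadian repressor gene and a standard receptor target, was instead highest in ruxolitinib replicate 2, at 289 and 384 CPM against 259 and 342 CPM. Il1r2, the decoy receptor for interleukin 1, was lowest in vehicle replicate 2, at 955 and 1237 CPM with ruxolitinib and 968 and 616 CPM with vehicle. Nfkbia, which encodes the NF-kB inhibitor IkB-alpha, was high in both replicates numbered 2, at 649 and 1247 CPM against 637 and 1251 CPM. Anxa1, which encodes annexin A1, was at 2036 and 2339 CPM against 2058 and 2337 CPM. Cebpd was at 113 and 124 CPM against 121 and 160 CPM, Txnip at 2028 and 1792 CPM against 2015 and 1159 CPM, and the chemokine receptor gene Cxcr4 at 787 and 854 CPM against 783 and 674 CPM. Standard induced genes were thus high, low or little different in vehicle replicate 2.

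Inflammatory genes that glucocorticoids repress likewise went both ways. The 18 tested had a median log2 fold change of 0.03. Of these, 4 (22.2%, beside 6.1% of all genes tested) were at least 2-fold higher in vehicle replicate 2 than in vehicle replicate 1. They were Cxcl1, Cxcl2, Ptgs2 and Sele, the last with only 39 against 3 counts. Another 3 (16.7%, beside 7.4% of all) were at least 2-fold lower (Il1a, Cxcl10 and Icam1). Ptgs2, the inducible cyclooxygenase gene, was at 92.3 and 103 CPM with ruxolitinib, against 78.4 and 300 CPM with vehicle. Il1a, which encodes interleukin 1 alpha, was at 19.5 and 36.5 CPM with ruxolitinib, against 18.2 and 2.61 CPM with vehicle, a log2 fold change of 1.43 ± 0.65 (SE).

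**Figure D4:**
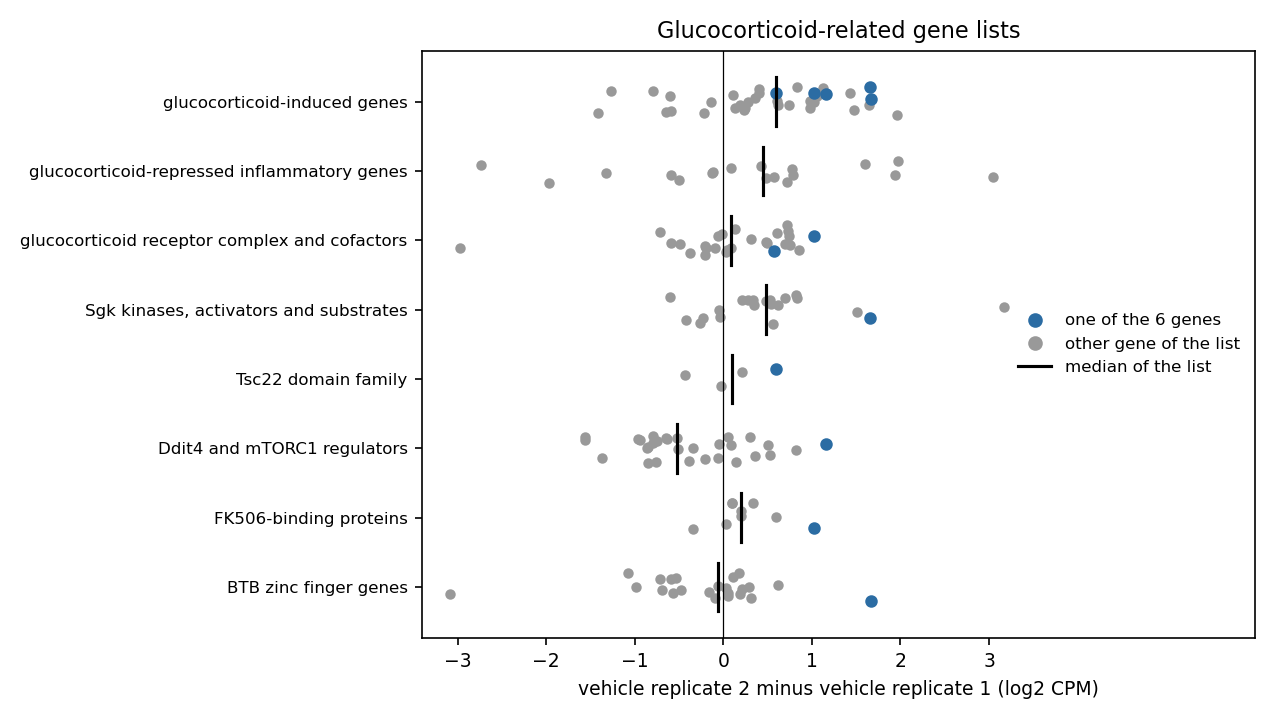
Difference between vehicle replicate 2 and vehicle replicate 1 (log2 CPM) for every tested gene of 8 lists, with the 6 genes in blue, other genes in grey and list medians as black bars; vertical scatter within a list has no meaning. The 6 genes lie to the right of 0 in each list that holds them, while the mTORC1 regulators have a median of -0.52.

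In the receptor's own machinery, the number of genes that differed by 2-fold between the vehicle libraries was near the background for a list of this size. Among 25 tested chaperones, cofactors and hormone-handling genes besides Nr3c1 and Fkbp5, the median log2 fold change was 0.02. Of these 25, 0 were at least 2-fold higher in vehicle replicate 2 than in vehicle replicate 1 (6.1% of all genes tested), and 1 was at least 2-fold lower (7.4% of all). That gene was Abcb1a, which encodes a drug efflux pump, with 57 and 38 counts with ruxolitinib, against 63 and 6 counts with vehicle. Its log2 CPM in vehicle replicate 2 minus vehicle replicate 1 was -2.98, a larger difference than that of any of the 6 genes. Hsp90ab1, which encodes HSP90 beta, was at 604 and 774 CPM with ruxolitinib, against 596 and 588 CPM with vehicle. Ptges3, which encodes the co-chaperone p23, was at 42.7 and 51.8 CPM against 46.4 and 30.8 CPM. Fkbp4, the relative of Fkbp5 whose product FKBP52 favours receptor activity, was at 20.1 and 24.0 CPM against 20.5 and 20.9 CPM. Nr3c2, the mineralocorticoid receptor gene, had 0.731 and 0.662 CPM against 0.635 and 1.11 CPM.

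Among the kinases related to Sgk1, Sgk3 was at 43.1 and 44.6 CPM with ruxolitinib, against 45.5 and 58.0 CPM with vehicle, and Sgk2 had at most 2 counts in a library. The SGK list without Sgk1 had 20 tested genes and a median log2 fold change of -0.13. In it 2 genes (10%, beside 6.1% of all genes tested) were at least 2-fold higher in vehicle replicate 2 than in vehicle replicate 1. These were Prr5 and Prr5l, which encode a subunit of mTORC2 and its relative, and Prr5l was at 4.52 and 6.54 CPM with ruxolitinib, against 3.05 and 28.5 CPM with vehicle. Pdpk1, which encodes PDK1, was at 99.8 and 90.7 CPM against 91.6 and 106 CPM. Rictor, the defining subunit of mTORC2, was at 194 and 167 CPM against 165 and 123 CPM, and Mtor at 26.5 and 29.5 CPM against 25.2 and 44.7 CPM. Of the 20 genes, 13 (65%) were highest in vehicle replicate 2, beside 38.5% of all genes tested, and the genes for SGK1 substrates went both ways. The ubiquitin ligase gene Nedd4l was at 32.0 and 36.2 CPM against 29.8 and 44.1 CPM, Ndrg1 at 58.3 and 65.7 CPM against 57.5 and 83.7 CPM, and the transcription factor gene Foxo3 at 173 and 153 CPM against 163 and 249 CPM. Wnk1, which encodes a kinase that SGK1 phosphorylates, was instead lowest in vehicle replicate 2, at 728 and 587 CPM with ruxolitinib, against 667 and 568 CPM with vehicle.

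Relatives of the other genes varied. In the Tsc22 domain family, Tsc22d4 was at 355 and 313 CPM with ruxolitinib, against 339 and 333 CPM with vehicle, and Tsc22d2 at 46.6 and 44.0 CPM against 47.3 and 54.9 CPM. The mTORC1 regulators besides Ddit4 went the opposite way on balance: the median of 29 tested genes was -0.53 for vehicle replicate 2 minus vehicle replicate 1, and Flcn, which encodes folliculin, was at 180 and 197 CPM with ruxolitinib, against 178 and 68.6 CPM with vehicle. Tsc2, through which REDD1 acts on mTORC1, was at 35.7 and 33.3 CPM against 33.7 and 47.8 CPM. Of the 8 tested FK506-binding protein genes besides Fkbp5, 0 differed by 2-fold in either direction between the vehicle libraries. Of the 22 BTB zinc finger genes besides Zbtb16, 0 were at least 2-fold higher in vehicle replicate 2 than in vehicle replicate 1 and 2 (Zbtb5 and Zbtb46) were at least 2-fold lower. With 6.1% of all genes tested higher and 7.4% lower by that much, counts of 0 in lists of this size are near the background. Bcl6, which encodes a BTB zinc finger repressor related to PLZF, was at 269 and 196 CPM with ruxolitinib, against 258 and 172 CPM with vehicle.

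Markers of other cells differed between the same libraries. The 15 eosinophil, basophil and mast cell markers summed to 1200 and 441 CPM with ruxolitinib, against 1073 and 1640 CPM with vehicle, the same highest and lowest library as for Sgk1, Nr3c1, Ddit4 and Zbtb16. Prg2, a granule protein gene of eosinophils, was at 563 and 208 CPM with ruxolitinib, against 489 and 681 CPM with vehicle. Vehicle replicate 2 was highest for 9 of the 15 (60%, beside 38.5% of all genes tested). In it 2 of the 15, Ear2 and Siglecf (13.3%, beside 6.1% of all), were at least 2-fold above vehicle replicate 1. The 13 monocyte and macrophage markers summed to 1162 and 1368 CPM, against 1185 and 1245 CPM. Of these 13, 9 were highest in vehicle replicate 2 (69.2%, beside the same 38.5% of all). Those for T and natural killer cells, 15 in the files, summed to 75.9 and 101 CPM, against 77.0 and 83.8 CPM, and those for B lineage cells, 11 in the files, to 1328 and 2253 CPM, against 1352 and 1675 CPM. Erythroid markers (12) summed to 9271 and 23351 CPM, against 9374 and 9027 CPM, and dendritic cell markers (12) to 4074 and 6926 CPM, against 4301 and 3160 CPM. No marker in the files was at 0 in all libraries. The part of these cells in the levels of the 6 genes was not tested.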

How the data were processed

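RNA of 4 libraries, 2 with ruxolitinib and 2 with vehicle, was quantified by the authors on GRCm38.p6, and Bowtie2, RSEM and DESeq2 are named in the submitters' processing notes. Each deposited table gives estimated counts for 16566 genes, and between 91.0% and 91.1% of these values were whole within 1e-06. The same deposited tables give TPM and FPKM, which the authors scaled to gene length and library. FPKM was used here only to compare scales, and TPM over FPKM had a median per library of 1.46 for ruxolitinib replicate 2 and 1.71 to 1.73 for the others. Libraries held 14235511 to 15419579 counts and 14375 to 14575 detected genes.

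Counts were rounded, kept for the 11611 genes that passed edgeR's filterByExpr, scaled by TMM and fitted with edgeR 4.0.16 (R 4.3.3, quasi-likelihood test, Benjamini-Hochberg adjustment). CPM use TMM-scaled library sizes, and log2 CPM used a prior count of 2. Fitted fold changes are ruxolitinib over vehicle. Poisson intervals are exact at 95% and cover counting error only. DESeq2 1.42.0, limma 3.58.1 (voom), RLE scaling, other count filters, log2 of TPM with pseudocounts of 1 and 0.1, a replicate block and each library left out were the alternatives. The replicate numbers name libraries and pair nothing in the labels.

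The 6 genes and all lists were chosen with earlier results of these data known. Genes named beyond the 6 were, per list, those with the largest fitted change, those at least 2-fold different between the vehicle libraries and those with a stated role, and the text gives a selection. Likeness was the Euclidean distance of centred log2 CPM. Sequences and windows come from a RefSeq promoter table of GRCm38.p6, and only windows of 300 bases were searched.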

Additional observations from a re-analysis of the deposited data

How the results depend on the processing

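Leaving out 1 library at a time, the fitted log2 fold changes ranged from -1.88 to -0.24 for Sgk1, -0.62 to -0.073 for Nr3c1, -0.30 to 0.29 for Tsc22d3, -0.97 to 0.040 for Fkbp5, -1.20 to -0.059 for Ddit4 and -1.77 to -0.10 for Zbtb16. The highest value of each came from the fit without vehicle replicate 2, and Tsc22d3 was also above 0, at 0.20, without ruxolitinib replicate 1. The other alternatives, listed under the processing, kept all 6 below 0. List medians ranged over the same omissions from -0.34 to 0.08 for induced genes, -0.29 to 0.32 for repressed genes, -0.087 to 0.057 for the receptor complex, -0.38 to 0.05 for the SGK list, -0.13 to 0.054 for the Tsc22 family, -0.00026 to 0.54 for mTORC1 regulators, -0.11 to 0.083 for FK506-binding proteins and -0.0072 to 0.21 for BTB zinc finger genes. Genes called over the whole table numbered 1 to 853 higher and 1 to 792 lower, and both upper values came from the fit without vehicle replicate 1.

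Replicate numbers were shared between the groups, and the deviations of same-numbered libraries correlated at r = 0.04 over 11611 genes. With so few libraries per group, each deviation reflects a single difference within its group. The correlation therefore cannot show whether same-numbered libraries shared an origin. The spread beyond counting noise was 3.63% between the libraries numbered 1 and 35.2% between the other same-numbered libraries. A shared origin was not tested. With the replicate number as a block, 9 genes were called higher and 7 lower, and the BTB zinc finger median was 0.16. That median was 0.15 by limma-voom and -0.0044 and -0.0056 on log2 of TPM with pseudocounts of 1 and 0.1. On those TPM scales the median of all genes shifted to -0.13 and -0.15, the receptor complex to -0.18 and -0.24 and the Tsc22 family to -0.18 and -0.18. The receptor complex median was -0.014 with genes of 1 count in any library and -0.10 with 50 counts in every library of 1 group. The cause of these differences was not tested.

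With 2 libraries per group and 1 vehicle library apart from the other, the spread within groups limits every comparison of treatment. Counting error limits Zbtb16 most.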

Other observations

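Promoter motifs were set beside the difference between the vehicle libraries. Of 9331 tested genes with a searched promoter window, 556 (5.96%) were at least 2-fold higher in vehicle replicate 2 than in vehicle replicate 1. Among 31 tested genes with the GRE core in a window, 4 (12.9%) were. Sgk1 is 1 of these 4, and it was selected for its high level in 1 vehicle library. Its place among them was thus set by that choice, and a role of the motif was not tested. The share was 5.29% of 1400 genes with a half-site, 7.51% of 586 with an AP-1 site, 6.77% of 783 with a GAS site, 8.51% of 141 with a CArG box, 5.28% of 341 with a cyclic AMP response element and 5.44% of 1122 with an E-box. These shares are descriptions of 2 libraries.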
